A study of Mus musculus with 6 samples.

Results

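The genes described here are 10 claudins of the fetal mouse intestine: Cldn1, Cldn2, Cldn3, Cldn4, Cldn6, Cldn7, Cldn8, Cldn10, Cldn15 and Cldn23. They were chosen by name, with earlier results of these data known. The array rows used were those annotated to exactly 1 of these symbols, with the brightest row for each gene. All 10 were measured, among 19938 genes in the table. The comparison was between Klf5D/D embryos, in which the gene for the zinc-finger transcription factor KLF5 is deleted, and controls labelled Klf5wt/wtShhEGFP/Cre+, with intact Klf5 and the ShhEGFP/Cre allele. Both groups were intestine of mixed strain, part C57Bl/6, at day E14.5, before villi form. There were 3 arrays per genotype, each with RNA pooled from 2 intestines, cut about 1.5 cm anterior to the cecum. The ShhEGFP/Cre allele expresses Cre from the Shh locus, which is active in the gut epithelium. The genotype label of the deleted embryos names no Cre allele. The RNA came from the whole intestinal segment, so muscle, mesenchyme, nerve and serosa were measured together with the epithelium.

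Claudins are four-pass membrane proteins that form the strands of tight junctions, the seal at the apical edge of epithelial cells. Their extracellular loops meet across the cell border. Some claudins tighten the seal (Cldn1, Cldn3, Cldn4 and Cldn8 are counted among these), whereas others form pores for small ions (Cldn2 and Cldn15 pass cations). In the intestine the mix of sealing and pore-forming claudins sets how leaky the epithelium is, and it changes along the gut and during development.

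Klf5 itself fell by 1.33 log2 units (SE 0.08, limma adjusted p = 9.62e-05). Its log2 signals were 10.24, 10.49 and 10.34 in the Klf5-deleted arrays, against 11.55, 11.74 and 11.77 in the controls. Over all genes, 1711 fell and 1785 rose at a Benjamini-Hochberg adjusted p of 0.05. These are 8.58% and 8.95% of the genes tested, and the median log2 difference over all genes was 0.02. The pools also differed in sex. Scaled by the signals of Eif2s3y, Kdm5d and Uty, the male share was 95% to 103% in the Klf5-deleted arrays, whose mean sets the scale, and 0%, 47.1% and 40.8% in the controls. The 0% was set by the scaling, as the value of the lowest array, control replicate 1. Xist, which female cells express, fell by 5.99 (SE 0.20, adjusted p = 8.14e-06). The highest control mean log2 signal was 13.68 among smooth muscle markers and 11.65 among endothelial markers. It was 8.52 among stomach and esophagus markers and 8.64 among pancreas markers. Of 8 smooth muscle and 8 endothelial genes, 0 passed limma's test, and at an unadjusted p of 0.05 there were 2 lower muscle genes and 1 higher endothelial gene. Of 6 enteric neuron and glia genes 1 rose, of 8 leukocyte genes 1 fell, of 8 stomach and esophagus genes 1 fell, and of 6 pancreas genes 0 passed, also at an unadjusted p of 0.05.

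Of the 10 claudins, 6 fell in the Klf5-deleted intestine, against 8.58% of all genes: Cldn8, Cldn3, Cldn7, Cldn2, Cldn23 and Cldn4. Only Cldn1 rose, against 8.95% of all genes, and 3 did not pass the test, Cldn6, Cldn10 and Cldn15. Because the 10 were chosen with earlier results of these data known, these counts are no test against the shares of all genes. Of the 18 other claudins measured, 1 fell. In the 6 claudins that fell, the Klf5-deleted and control arrays did not overlap, as was the case for 15.9% of all genes in the lower direction. They also did not overlap for Cldn1, in the higher direction, as for 20.1% of all genes. The median log2 difference over the 10 was −0.67. The 3 claudins that fell more than 2-fold were Cldn8, Cldn3 and Cldn7, and 1.13% of all genes fell that far and passed the test. In exact permutation tests (two-sided), each of the 7 that passed had p = 0.1, the smallest value that 3 arrays against 3 allow. Cldn6 and Cldn15 had p = 0.2 and Cldn10 p = 0.5 in that exact test.

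**Figure D1:**
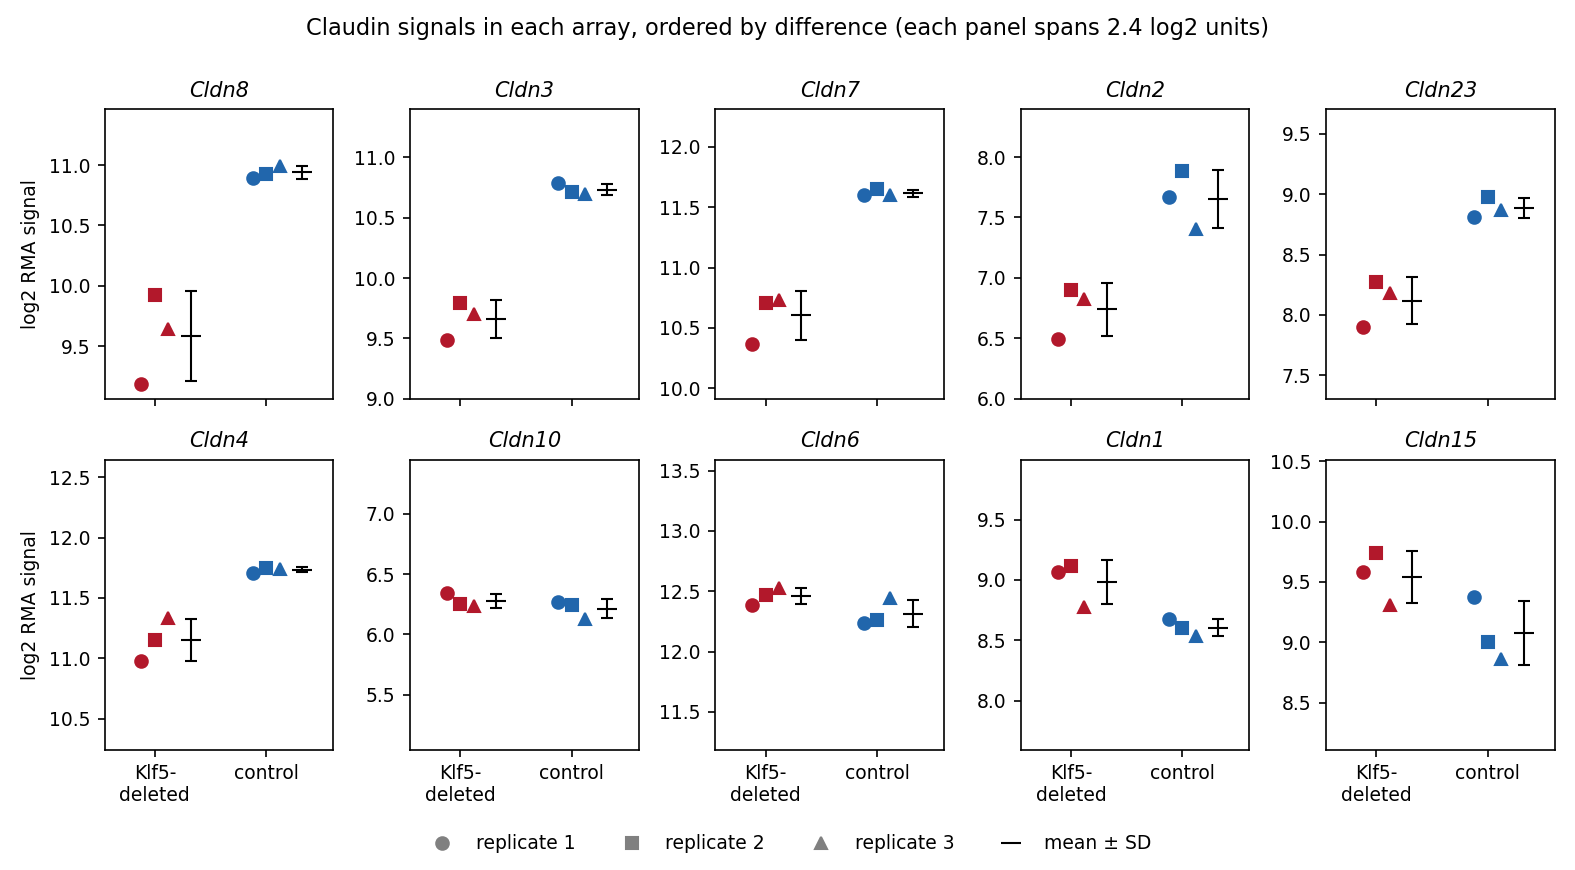
Log2 RMA signal of the 10 claudins in each array, with Klf5-deleted arrays in red and control arrays in blue. Symbols mark the replicate, black bars the mean ± SD (n = 3), and every panel spans the same 2.4 log2 units. The first 6 panels show groups that do not overlap, with Klf5-deleted replicate 1 lowest in each.

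The promoters of claudins on both sides of this contrast are shown because the deleted factor is a protein that binds DNA. RefSeq promoter sequences of build GRCm38.p6 were matched for 8 of the 10 genes, each 250 bases before to 50 bases after a transcription start. Those printed are of 3 claudins that fell and of 2 that were not called lower. They lie at chr5:134985964-134986263 on the plus strand for Cldn3, chr5:134946885-134947184 on the minus strand for Cldn4, chr11:69964529-69964828 on the plus strand for the first of the 2 promoters of Cldn7, chr17:23679115-23679414 on the plus strand for Cldn6, and chr5:136967619-136967918 on the plus strand for Cldn15. Capitals mark matches, on either strand, to CCNCNCCC, a short form of the CACCC and GC-box sites that KLF and SP proteins bind.
Cldn3: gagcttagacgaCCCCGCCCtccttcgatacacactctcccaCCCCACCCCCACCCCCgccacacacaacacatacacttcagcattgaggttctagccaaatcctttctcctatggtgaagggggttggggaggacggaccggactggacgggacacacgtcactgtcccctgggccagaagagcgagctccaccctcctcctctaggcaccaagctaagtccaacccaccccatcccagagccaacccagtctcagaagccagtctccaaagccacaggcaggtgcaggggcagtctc
Cldn4: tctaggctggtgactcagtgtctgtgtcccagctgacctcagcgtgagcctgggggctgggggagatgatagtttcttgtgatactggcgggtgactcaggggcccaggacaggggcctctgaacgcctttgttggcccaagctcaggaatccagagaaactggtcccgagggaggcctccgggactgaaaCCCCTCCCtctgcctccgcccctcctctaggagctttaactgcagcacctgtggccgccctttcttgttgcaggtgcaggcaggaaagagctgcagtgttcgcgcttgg
Cldn7: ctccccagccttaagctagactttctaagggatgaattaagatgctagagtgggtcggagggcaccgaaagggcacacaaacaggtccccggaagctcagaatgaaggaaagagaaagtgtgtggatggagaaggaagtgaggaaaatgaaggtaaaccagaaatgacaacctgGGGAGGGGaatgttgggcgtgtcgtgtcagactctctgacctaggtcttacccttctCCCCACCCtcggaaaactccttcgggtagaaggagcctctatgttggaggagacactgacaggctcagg
Cldn6: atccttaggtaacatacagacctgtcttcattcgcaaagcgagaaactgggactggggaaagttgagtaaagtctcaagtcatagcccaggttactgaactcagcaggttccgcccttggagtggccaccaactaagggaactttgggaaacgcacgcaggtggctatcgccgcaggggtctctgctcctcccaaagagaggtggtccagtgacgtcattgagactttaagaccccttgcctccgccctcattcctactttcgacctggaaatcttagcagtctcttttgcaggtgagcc
Cldn15: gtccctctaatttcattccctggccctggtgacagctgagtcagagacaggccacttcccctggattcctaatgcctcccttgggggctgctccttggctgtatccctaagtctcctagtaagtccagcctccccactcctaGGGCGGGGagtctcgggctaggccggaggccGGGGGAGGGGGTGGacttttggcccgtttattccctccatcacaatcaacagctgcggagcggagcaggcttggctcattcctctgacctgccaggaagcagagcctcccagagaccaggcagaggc

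The Cldn3 promoter held 5 matches, overlapping ones counted separately, that of Cldn4 held 1, the first Cldn7 promoter 2, that of Cldn15 4 and that of Cldn6 0. All 4 fallen claudins with a sequence (Cldn2, Cldn3, Cldn4 and Cldn7) had a match in at least 1 promoter, in 4 of 5 promoters in all. So did 3 of the 4 claudins with a sequence that were not called lower, Cldn1, Cldn10 and Cldn15, in 3 of 5 promoters. The motif is common: 49.5% of 32851 mouse promoters of the same length held it. The CDX motif TTTATNG (10.9% of promoters), the HNF4 motif CAAAGTCCA (0.475%) and the GRHL motif AACNGGTT (2.09%) were in 0 of the 10 claudin promoters, searched on both strands. The ETS motif ACCGGAAGT (1.1%) was in 1 of them, the second promoter of Cldn7. GC content was 51.3% to 62.3% in the promoters of the fallen claudins and 36.0% to 72.0% in those of the others. A match to these letters is a description of the sequence and shows no binding.

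Among the sealing claudins, Cldn8 showed the largest fall. Cldn8, a sealing claudin of distal gut and kidney tubules, read 9.19, 9.92 and 9.65 in the Klf5-deleted arrays, against 10.90, 10.92 and 10.996 in the controls. The controls lay within about 0.1 of each other while the deleted arrays spread over more than 0.7, with replicate 1 the lowest. The mean signal was 39.1% of the control level (log2 difference −1.36, SE 0.16, adjusted p = 0.00175 with limma). Krtap24-1, beside Cldn8, was at −0.14 (SE 0.05, adjusted p = 0.0847).

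Cldn3, one of the main sealing claudins of the gut, read 9.49, 9.80 and 9.70 in Klf5-deleted intestine, against 10.79, 10.71 and 10.70 in control intestine. Every deleted array was below every control by more than 0.8. The level was 47.7% of control (log2 difference −1.07, SE 0.08, adjusted p = 0.000196). Cldn7, which sits on the lateral membrane as well as at the junction and is needed for an intact gut epithelium in mice, read 10.37, 10.71 and 10.74, against 11.60, 11.65 and 11.60. The controls were nearly equal and the deleted arrays lay well below them. Its size of change was close to that of Cldn3, at 49.6% of control (log2 difference −1.01, SE 0.10, adjusted p = 0.000571). Of the genes beside Cldn7, the glucose transporter gene Slc2a4 rose by 0.28 (SE 0.05, adjusted p = 0.00748), and Elp5 was at −0.05 (SE 0.06, adjusted p = 0.634).

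Cldn4, a sealing claudin and receptor for a bacterial enterotoxin, fell the least of the 6. It read 10.98, 11.15 and 11.33 in the deleted arrays, against 11.71, 11.75 and 11.74 in the controls. The groups were apart, but the level was still 67.0% of control (log2 difference −0.58, SE 0.08, adjusted p = 0.00401). Its 95% interval, −0.78 to −0.38, did not meet that of Cldn3, −1.26 to −0.88, or that of Cldn8, −1.74 to −0.97. Cldn3 and Cldn4 lie side by side on chromosome 5, with no other protein-coding gene of RefSeq between them. Beyond them, Abhd11, a hydrolase gene next to Cldn3, fell by 0.51 (SE 0.05, adjusted p = 0.000944). Mettl27, next to Cldn4, was at 0.03 (SE 0.06, adjusted p = 0.828).

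Of the pore-forming claudins, Cldn2 fell, and Cldn15 and Cldn10 did not pass the test. Cldn2, a pore for sodium and water that marks crypts in the adult gut, was dim: 6.49, 6.90 and 6.83 in the deleted arrays, against 7.67, 7.88 and 7.41 in the controls. Its controls spread more than those of the other fallen claudins (SD 0.24), and control replicate 3 came nearest to the deleted arrays. The signal was 53.0% of control (log2 difference −0.91, SE 0.14, adjusted p = 0.00526). Cldn2 is on the X chromosome, and the groups differed in sex. Of 739 X-linked genes 18.0% passed the test, and of 19102 autosomal genes 17.6%. The X-linked neighbours Ripply1 (0.13, adjusted p = 0.393) and Morc4 (−0.02, adjusted p = 0.8) did not pass. For Cldn2 these values cannot tell sex from genotype, which differed together between the groups. With each gene's own variance in place of the moderated one, a setting added after the data were seen, the call of Cldn2 was lost (adjusted p = 0.0636).

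Cldn23, a claudin of differentiated intestinal surface epithelium, read 7.90, 8.27 and 8.18 in Klf5-deleted intestine, against 8.81, 8.98 and 8.87 in control intestine. The groups were apart by more than 0.5. The level was 58.6% of control (log2 difference −0.77, SE 0.10, adjusted p = 0.00224). Of the genes beside it, Prag1 was at −0.17 (SE 0.06, adjusted p = 0.0936) and Gm19410 at 0.09 (SE 0.06, adjusted p = 0.378).

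In all 6 fallen claudins the lowest of the deleted arrays was replicate 1. Leaving out any one array kept all 6 calls, with adjusted p of at most 0.0227. When limma's fit held each pool's male share as a covariate, 0 of the 6 passed. In that fit 79 of all genes fell and 4 rose, against 1711 and 1785 without the covariate. The log2 differences there were −1.40 for Cldn8, −1.002 for Cldn7, −0.92 for Cldn3, −0.93 for Cldn23, −0.91 for Cldn2 and −0.56 for Cldn4 (adjusted p = 0.166 to 0.358). Within the controls the male share was 0%, 47.1% and 40.8%. The 3 control arrays spanned about 0.1 or less for Cldn3, Cldn4, Cldn7 and Cldn8. They spanned more than that for Cldn23 (8.81, 8.98 and 8.87) and Cldn2 (7.67, 7.88 and 7.41). The control shares do not reach those of the deleted arrays, so sex and genotype cannot be told apart for these claudins.

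Cldn6, a claudin of embryonic epithelia that is largely shut off after birth, was the brightest of the set in both groups. It read 12.39, 12.47 and 12.52 in the deleted arrays, against 12.24, 12.26 and 12.44 in the controls. The groups overlapped through control replicate 3. The log2 difference was 0.15 (SE 0.07, adjusted p = 0.202), with a 95% interval of −0.01 to 0.31, which lies above the interval of each of the 6 fallen claudins. Cldn9, a claudin of the inner ear that lies next to Cldn6 on chromosome 17, was at 0.16 (SE 0.07, adjusted p = 0.19). The neighbour on the other side, Tnfrsf12a, fell by 0.24 (SE 0.05, adjusted p = 0.0155).

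Cldn10, whose isoforms form anion or cation pores, was near the lower end of the array's range. Its brighter row read 6.34, 6.26 and 6.24 in the deleted arrays, against 6.27, 6.25 and 6.13 in the controls, and only 17.3% of genes had a lower control level. At that brightness a change in the tissue would show little on the array, so a value of 0.06 (SE 0.06, adjusted p = 0.528) does not show that Cldn10 is unchanged. Its second row gave the same difference, 0.06. Another row, shared with the neighbouring gene Dzip1, was at 0.27 and cannot be given to Cldn10. On its own row Dzip1 rose by 0.35 (SE 0.07, adjusted p = 0.0106). Abcc4, on the other side of Cldn10, was at −0.03 (SE 0.06, adjusted p = 0.765).

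Cldn1 rose, and Cldn15 was higher in the deleted arrays on average without passing the test. Cldn1, the sealing claudin of the epidermal barrier, read 9.06, 9.11 and 8.78 in the deleted arrays, against 8.68, 8.60 and 8.53 in the controls. Deleted replicate 3 was close to the highest control. The level was 130% of control (log2 difference 0.38, SE 0.09, adjusted p = 0.0289), and the call was kept in 1 of 6 fits with an array left out, that without Klf5-deleted replicate 3 (adjusted p = 0.00599, against 0.0521 to 0.1 in the other 5). Its neighbour P3h2, a collagen prolyl hydroxylase gene, also rose by 0.32 (SE 0.06, adjusted p = 0.00885), whereas Cldn16 on the other side was at 0.12 (SE 0.06, adjusted p = 0.284). Cldn15, the sodium pore that supports glucose uptake in the mouse small intestine, read 9.58, 9.74 and 9.31 in the deleted arrays, against 9.37, 9.002 and 8.86 in the controls. Control replicate 1 lay above deleted replicate 3. The log2 difference was 0.46 (SE 0.15, 95% interval 0.11 to 0.81, adjusted p = 0.0765), and it passed without control replicate 1 (0.61, adjusted p = 0.0292). Adding the male share to the fit put the difference at 1.03 (adjusted p = 0.263). The genes beside Cldn15, Fis1 (0.08, SE 0.07) and Znhit1 (−0.03, SE 0.07), did not pass.

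Most mesothelial genes rose as well. The mesothelium is the epithelium that covers the gut's outer face. Of 8 mesothelial markers 7 rose and 1 fell, against 8.95% of all genes higher and 8.58% lower. The median log2 difference of the markers was 0.76. Their summed linear signal ranged from 8301 to 11097 in the deleted arrays and from 5125 to 6839 in the controls. The mean of their log2 signals was 9.79, 9.57 and 9.45 in the deleted arrays, against 9.22, 8.99 and 8.80 in the controls. Deleted replicate 3 was the lowest deleted array and control replicate 1 the highest control for that mean, and so they were for Cldn1 and Cldn15. The highest deleted array was replicate 1 for the mesothelial mean and replicate 2 for Cldn1 and Cldn15. Among the markers, Wt1, a transcription factor of mesothelium, rose by 0.87 (SE 0.18, adjusted p = 0.0161), and Msln, which encodes mesothelin, fell by 0.52 (SE 0.07, adjusted p = 0.00387). The part of mesothelium in the values of Cldn1 and Cldn15 was not tested.

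**Figure D2:**
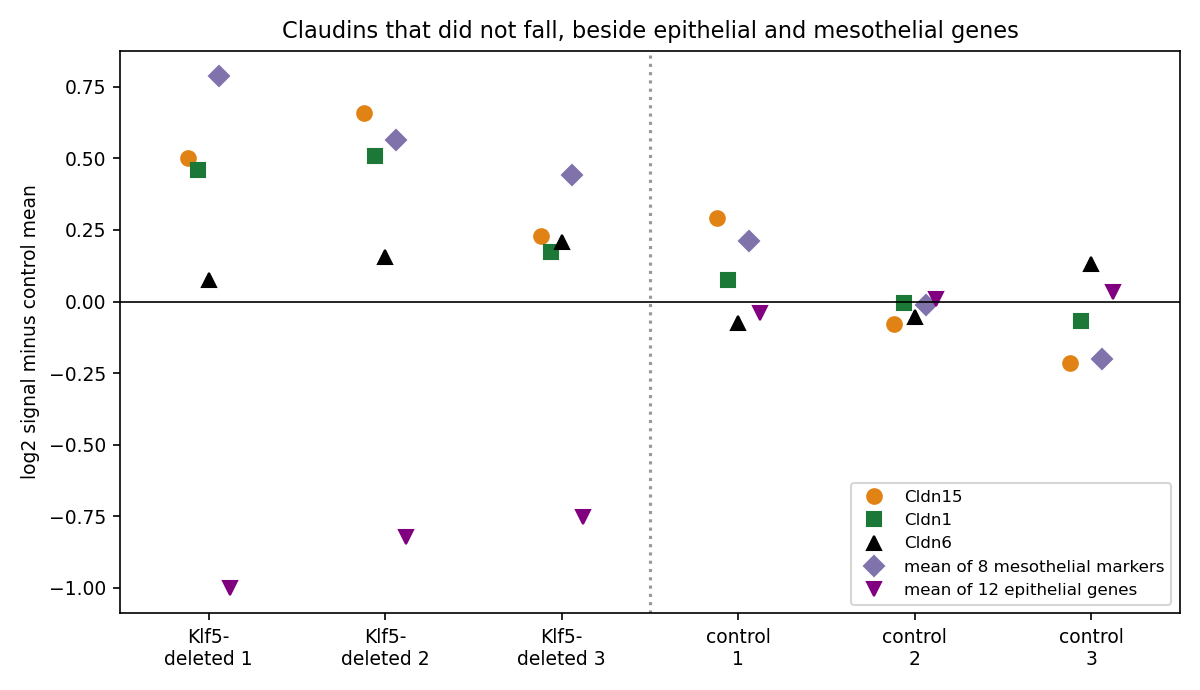
Log2 signal minus the control mean, by array, for Cldn15, Cldn1 and Cldn6, for the mean of 8 mesothelial markers and for the mean of 12 epithelial genes. Klf5-deleted arrays are left of the dotted line. The epithelial mean is low in all 3 deleted arrays, while Cldn6 stays near 0. The mesothelial mean is high in all 3 deleted arrays, and Cldn1 and Cldn15 are higher in deleted replicates 1 and 2 than in replicate 3.

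Claudins that were called lower and claudins that were not were found over much of the range of brightness. Set among all genes by control level, the fallen ones ranged from Cldn2, with 37.0% of genes below it, to Cldn4, with 94.6% below it. The others ranged from Cldn10 at 17.3% to Cldn6 at 97.7%, with Cldn1 at 49.4% and Cldn15 at 56.2%.

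**Figure D3:**
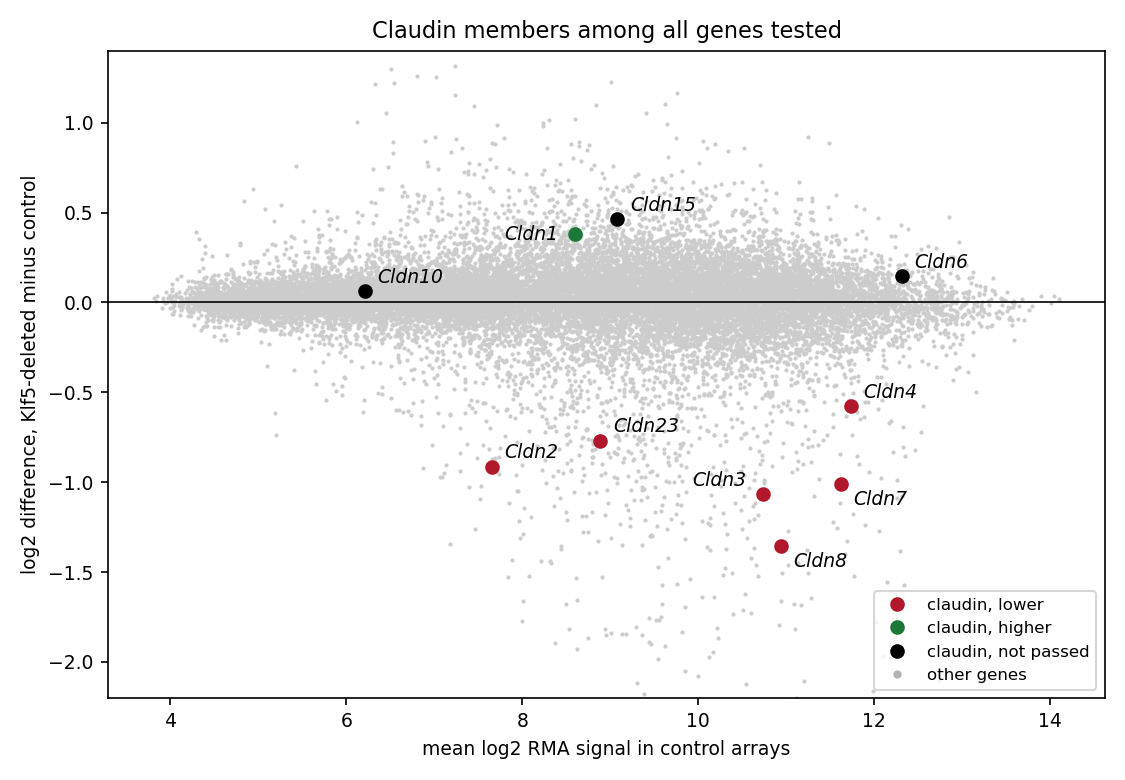
Log2 difference, Klf5-deleted minus control, against the mean log2 signal in control arrays, for all genes tested (grey) and the 10 claudins (coloured by call). The axis is limited to −2.2 to 1.4, which leaves out 45 genes, and the fallen claudins lie at both middle and high signals, as do Cldn1, Cldn15 and Cldn6.

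Most of these genes are made by the epithelium, so their falls were set beside genes that mark epithelium in general. Of 12 such genes, Epcam and Cdh1 among them, 12 fell, against 8.58% of all genes. Their median log2 difference was −0.83, with a range of −1.27 to −0.36. Epcam fell by 0.61 (SE 0.07, adjusted p = 0.00187) and Cdh1, which encodes E-cadherin, by 0.94 (SE 0.10, adjusted p = 0.00087). The mean of their log2 signals was 10.31, 10.48 and 10.55 in the deleted arrays, against 11.27, 11.32 and 11.34 in the controls, a difference of −0.86, again lowest in deleted replicate 1. In whole-segment RNA, fewer epithelial cells and less RNA of a gene per cell cannot be told apart.

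Each claudin was then taken relative to that mean within each array. The 6 fallen claudins ranged from −0.50 to 0.28 on this scale, and the other 4 from 0.92 to 1.32. The mean difference of every gene shifts by the same 0.86 here. The order of the claudins and the gap between these ranges therefore restate the differences above. Relative to the epithelial genes, the deleted arrays lay wholly below the controls for Cldn8 (−0.50), Cldn3 (−0.21) and Cldn7 (−0.15), as for 0.973% of all genes. They overlapped the controls for Cldn2 (−0.06) and Cldn23 (0.09). They lay wholly above them for Cldn4 (0.28), Cldn10 (0.92), Cldn6 (1.00), Cldn1 (1.24) and Cldn15 (1.32), as for 97.4% of all genes. The epithelial genes themselves fell by 0.86, and the median of all genes was at 0.02. For Cldn6 the values on this scale were 2.08, 1.99 and 1.97 in the deleted arrays, against 0.97, 0.94 and 1.11 in the controls. For Cldn8 they were −1.12, −0.56 and −0.91, against −0.37, −0.39 and −0.34.

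Limma fitted to this relative scale called 1 claudin lower, Cldn8, against 0.998% of all genes, and 5 higher, against 97.6%. The spread of the shared reference enters every gene there, and the moderated standard error took the single value 0.11 for all genes. From each gene's own arrays it was 0.04 for Cldn4, 0.07 for Cldn3, 0.16 for Cldn8 and 0.24 for Cldn15. The p-values of this fit therefore do not follow each gene's spread and are not given, and its calls carry the same limit. The sizes depended on the genes chosen: with Epcam alone as the reference Cldn4 was at 0.03, and Cldn2, Cldn3, Cldn7 and Cldn8 were called lower.

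**Figure D4:**
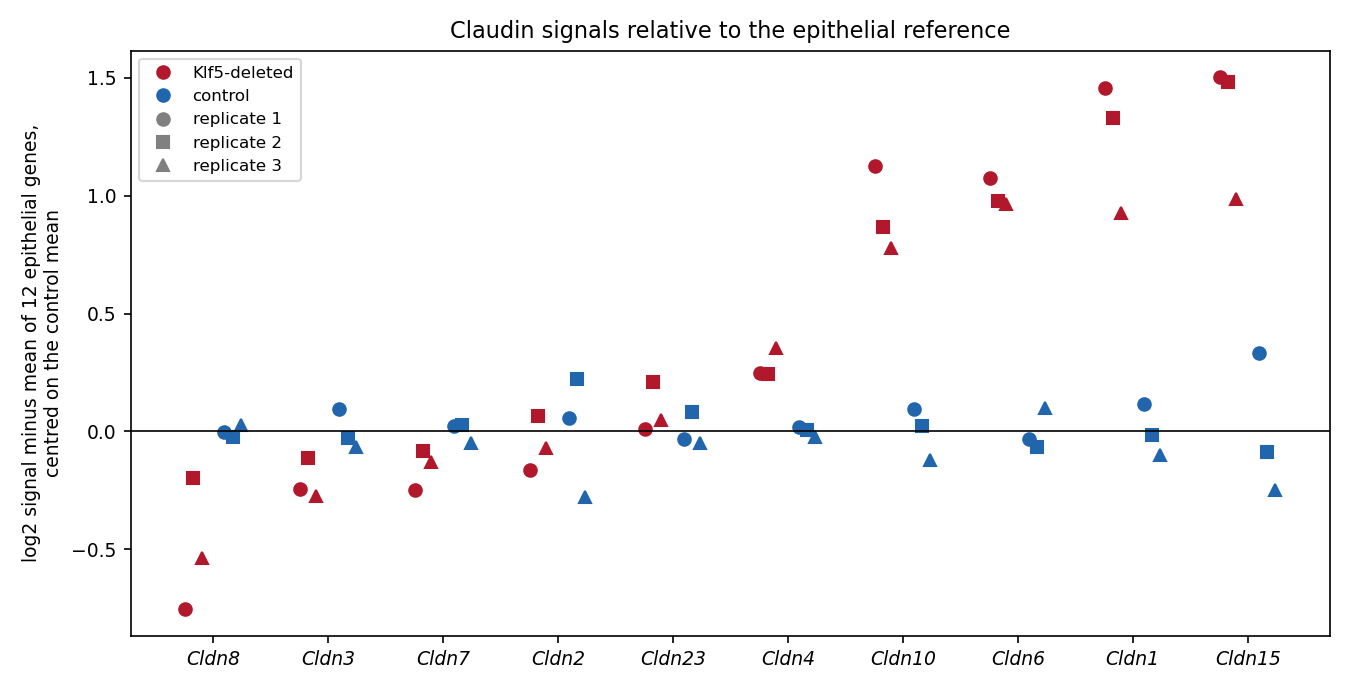
Log2 signal of each claudin minus the mean of 12 epithelial genes in the same array, centred on the control mean, for Klf5-deleted arrays (red, left of each pair) and control arrays (blue). Cldn8, Cldn3 and Cldn7 lie below their controls, Cldn2 and Cldn23 overlap them, and the deleted arrays of Cldn10, Cldn6, Cldn1 and Cldn15 lie 0.7 or more above the control mean.

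Of 18 other claudins with a row of their own, 1 fell and 0 rose by limma, against 8.58% and 8.95% of all genes, with a median log2 difference of 0.05. At an unadjusted p of 0.05, 1 was lower and 1 higher, and 11 had a control mean under 7. The one that fell was Cldn18, a claudin of stomach and lung epithelium. It read 7.62, 7.82 and 7.89 in the deleted arrays, against 8.49, 8.73 and 8.42 in the controls, at 58.7% of control (log2 difference −0.77, SE 0.10, adjusted p = 0.00233). Relative to the epithelial genes it was at 0.09, and the groups overlapped. Cldn17, next to Cldn8, was at 0.06 (SE 0.07, adjusted p = 0.642), and Cldn13, beyond Cldn4, at 0.09 (SE 0.34, adjusted p = 0.897). Both were dim.

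**Figure D5:**
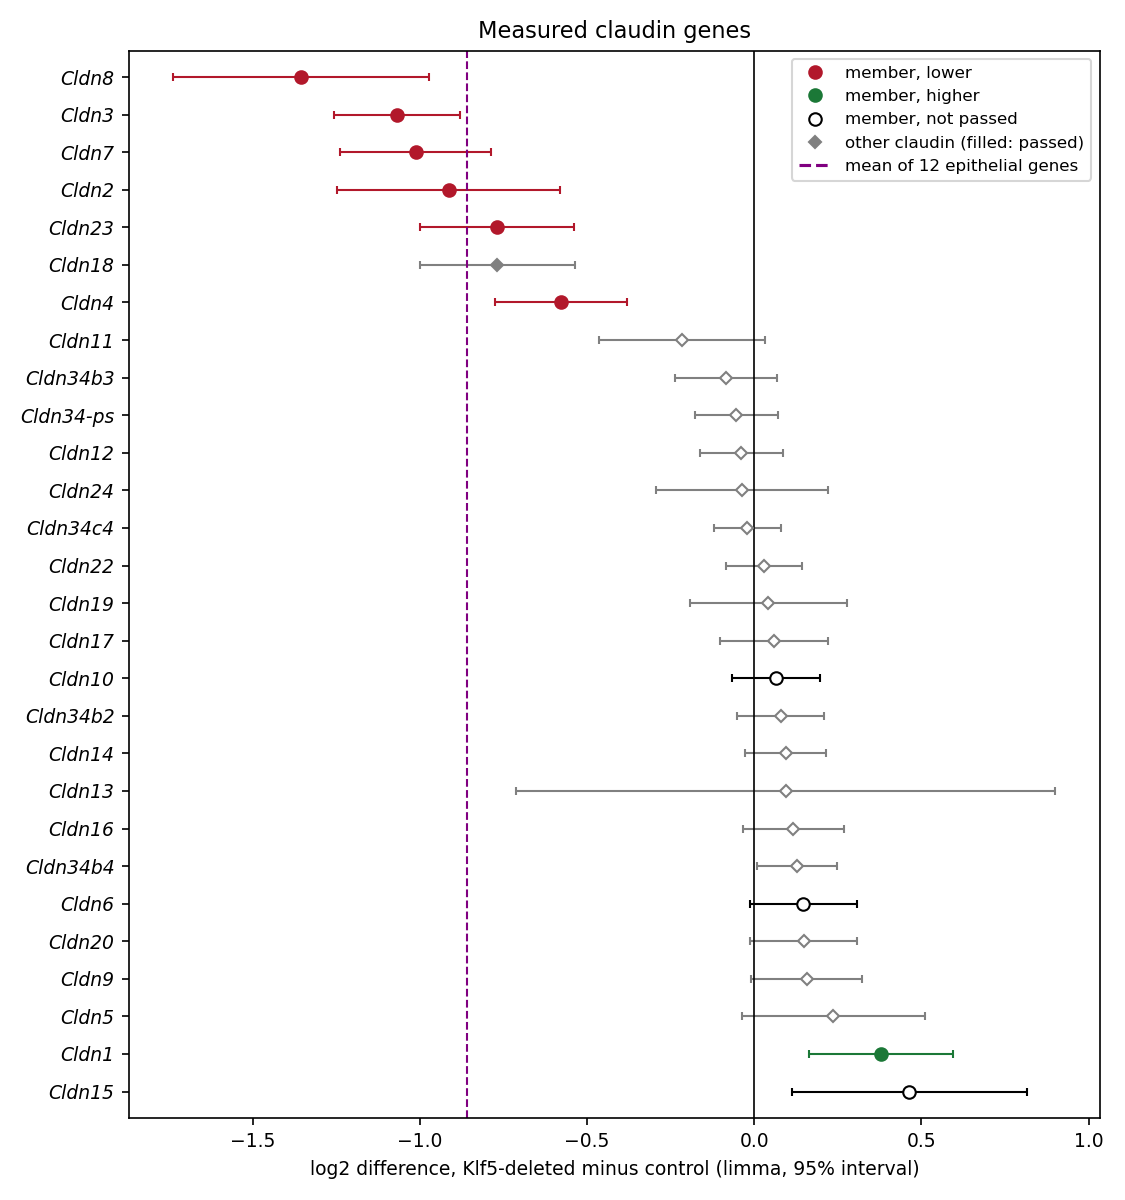
Log2 difference with limma's 95% interval for the 10 claudins (circles) and 18 other claudins (grey diamonds), filled where the test was passed. The dashed line marks the mean of the 12 epithelial genes, −0.86, and the 7 falls lie around it while all other claudins lie within 0.5 of 0.

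Genes whose proteins work with claudins at the tight junction changed in part. Of 25 measured partner genes, 14 fell, 3 rose and 8 did not pass, against 8.58% of all genes lower and 8.95% higher. Their log2 differences ranged from −1.18 to 0.40, with a median of −0.30. The epithelial genes fell by 0.86 in the same arrays. Those with the smallest p all fell: Tjp3, a scaffold gene, by 1.18 (SE 0.08), Ocln, which encodes occludin, by 1.08 (SE 0.08), Lsr, a gene of tricellular junctions, by 0.78 (SE 0.06), Crb3, an apical polarity gene, by 0.70 (SE 0.08), Cgn, which encodes cingulin, by 0.70 (SE 0.09), and Prkcz, a polarity kinase gene, by 0.53 (SE 0.06). Their adjusted p values were at most 0.00213. Relative to the epithelial genes, Tjp3 (−0.32) and Ocln (−0.22) lay wholly below the controls, as for 0.973% of all genes. Lsr (0.08) and Cgn (0.16) overlapped the controls. Crb3 (0.16) and Prkcz (0.33) lay wholly above the controls, as for 97.4% of all genes.

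Factors known to act on claudin genes were read from the same arrays. Grhl2, an activator of Cldn3 and Cldn4, fell by 0.68 (SE 0.08, adjusted p = 0.00131). Cdx2, which in human cells acts on the CLDN2 promoter, fell by 0.62 (SE 0.08, adjusted p = 0.0022). Hnf4a, a nuclear receptor of enterocytes, fell by 1.97 (SE 0.08, adjusted p = 1.42e-05). Relative to the epithelial genes, Hnf4a was at −1.11, wholly below the controls, as for 0.973% of all genes. Grhl2 (0.17) and Cdx2 (0.24) were wholly above the controls, as for 97.4% of all genes. Zeb1, a repressor of epithelial genes that mesenchyme expresses, rose by 0.29 (SE 0.04, adjusted p = 0.00311). The repressor genes Snai1 (0.08, SE 0.08) and Snai2 (0.06, SE 0.05) and the vitamin D receptor gene Vdr (0.05, SE 0.07) did not pass.

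By Euclidean distance between their 6 log2 values, each gene centred on its own mean, the genes outside the family nearest to each changed claudin were as follows. Nearest to Cldn3 were Elovl7 (0.12) and Pkp2 (0.12), to Cldn7 Rnf43 (0.08) and Stambpl1 (0.09), and to Cldn8 Myo7b (0.15) and Rab17 (0.18). Nearest to Cldn4 were Elf1 (0.10) and Il17rc (0.10), to Cldn23 Shtn1 (0.09) and AA986860 (0.09), and to Cldn2 Fgfbp1 (0.21) and Ms4a8a (0.22). Nearest to Cldn1 were Itpkb (0.10) and Hdx (0.10). Distances are in log2 units over 6 arrays, and they are dominated by the difference between the groups.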

How the data were processed

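Gene expression in mouse embryonic intestine was measured on Affymetrix Mouse Gene 1.0 ST arrays, in 3 Klf5-deleted and 3 control samples, grouped and numbered from the sample titles. Per the submitters' processing notes, the authors used RMA and Affymetrix Expression Console 1.1, and the deposited table holds log2 signals. RMA equalises the arrays' distributions, so a shift common to most genes is removed, and folds of dim genes are understated. Arrays have no read depth, and their number limits the precision.

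Of 35557 rows, 21789 had 1 gene symbol, 1621 several and 12147 none in the platform's annotation. Gene IDs gave current RefSeq symbols (GRCm38.p6) for 21698 rows, and the brightest row of each gene was kept, giving 19938 genes with no filter on level. Limma 3.58.1 in R 4.3.3 (lmFit, eBayes) compared the groups as deleted minus control, adjusting p over all genes by Benjamini-Hochberg and a threshold of 0.05. The steps were tested on simulated data. Alternatives changed the scaling, the filter on dim genes, the choice of row, the variance model, array weights, the threshold, the covariates, the arrays included and the epithelial reference. The labels do not tell which litters the pools came from, so p-values measure the spread between pools.

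The members, lists, motifs and alternatives were chosen with earlier results of these data known. Named are the 10 claudins, other claudins that passed or neighbour them, the neighbouring genes, the 6 tight junction partners with the smallest p, 7 listed factors, Epcam and Cdh1, and the 2 genes nearest to each changed claudin. Wt1 and Msln were chosen after their values were seen. Some listed genes were not analysed here. The labels' replicate numbers were not used to pair the arrays in the main fit.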

Additional observations from a re-analysis of the deposited data

How the results depend on the processing

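In fits of the signals as measured, the 6 falls kept their direction in every alternative run that tested the gene. At least 4 claudins were called lower in all of these alternatives but 1: with the male share as covariate 0 were, and 0 higher. With the lowest 50% of genes left out, Cldn2 and Cldn23 were not tested, and 4 of the 7 claudins tested were called lower. The single rise was less stable. The number higher was 0 to 1 with an array left out, 0 with array weights, with all rows tested on their own and with no variance moderation (added after the data were seen), and 2 with the lowest 50% of genes left out or a threshold of 0.1. Without control replicate 1 the claudin called higher was Cldn15, not Cldn1. Of the other claudins 0 were called lower with the lowest 50% left out, where Cldn18 was not tested, and 0 with the male share as covariate. Relative to the epithelial reference, the number lower was 1 to 2 with an array left out. It was 2 with an intensity trend, array weights, a threshold of 0.1 or no variance moderation, 3 with the median of the reference genes, 4 with Epcam as the reference, and 0 with the male share as covariate. The cause of these shifts was not tested. The replicate number as a block gave 6 claudins lower and 1 higher, as without it, 2 lower on the relative scale, and 900 genes higher and 1108 lower over all genes. Same-numbered arrays correlated at −0.145, −0.274 and −0.031 in their deviations from the group means, so the numbers were not taken as pairs, and 0 of the 3 pairs was above 0.1. Over all genes 868 rose and 1132 fell without control replicate 2, 1174 rose without Klf5-deleted replicate 3, 1143 rose without control replicate 3, 900 rose and 1103 fell with no variance moderation, and 4 rose and 79 fell with the male share as covariate. Dim genes such as Cldn10 limit what the arrays can show.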
